A study of Oryza sativa with 8 samples.

Results

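The nuclear LHCB genes encode the light-harvesting proteins of photosystem II in the thylakoid membranes of the chloroplast. They were followed here in rice seedlings under dehydration and after knockdown of SDG708, a gene for a SET-domain histone methyltransferase. Members were 8 loci fixed by identifier: 3 copies of LHCB1 and 1 locus each for LHCB2 to LHCB6. All 8 have a row among the 34119 loci of the deposited table, and all 8 passed the filter on low values, as did 20943 loci in all. The members and the gene lists used beside them were chosen with earlier results of these data known.

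LHCB1, LHCB2 and LHCB3 build the trimers of LHCII, the outer antenna that holds most of the chlorophyll of photosystem II. LHCB4 (CP29), LHCB5 (CP26) and LHCB6 (CP24) are monomeric minor antenna proteins that connect the trimers to the reaction centre core. The proteins bind chlorophyll a, chlorophyll b and xanthophylls, and their transcripts are among the most abundant of a green leaf and respond to light, the circadian clock and signals from the chloroplast.

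Seedlings aged 14 days were used. They had grown for 7 days on solid and then 7 days in liquid culture, in a cycle of 10 h light (30 °C) and 14 h dark (28 °C). WT_control was untreated wild-type (n = 3), called NIP in the series. WT_PEG was wild-type kept in 20% PEG 8000 for 3 h (n = 2), a polymer that draws water out of the roots. The third group, 708RNAi_PEG, was an SDG708 knockdown in the same PEG solution (n = 3), and the labels name a single line for it, 708Ri-1-1. There was no untreated knockdown group in the comparisons, so an effect of the knockdown that needs PEG and one that does not cannot be told apart. The row of SDG708 was not analysed here, so the knockdown was not checked. Separate plants or cultures are not stated for the replicates in the labels, so p-values reflect only how these libraries varied, and that variation may be technical.

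The table gives FPKM, read number scaled per kilobase of gene and to a library denominator. Whole reads could be recovered from the steps of the values for 34119 of 34119 rows, and libraries held 30817910 to 49707734 of them. Each member had between 14945 and 484298 reads in every library, so counting error is small beside the spread between libraries. Recovered lengths of the members ran from 1057 to 2600 bases. Levels of different genes are compared below only as FPKM, per kilobase of that length. For some listed loci the length equalled the span of the gene in RefSeq, as for LSI1 (3716 bases) and PORB (3733 bases). Introns thus seem to be counted in it. Ranks, orders and shares of FPKM across genes depend on these lengths and are not transcript numbers. Names in the RefSeq gene table (assembly ASM3414082v1) on the same chromosome were found for LOC_Os09g17740 (CAB1R, chromosome 9), LOC_Os01g41710 (CAB2R, chromosome 1) and LOC_Os03g39610 (RCABP89, chromosome 3). The names of the other 5 members rest on the locus list. LHCB1 copies are similar genes, and no source used here says how reads that match several of them were counted, so the division of reads among the 3 copies is uncertain.

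In untreated seedlings the LHCB genes stood near the top of all loci by mean FPKM. LOC_Os01g41710 and LOC_Os09g17740, both LHCB1 copies, ranked 1 and 2 of all loci by mean FPKM, LHCB2 ranked 5, LHCB4 ranked 10 and LHCB3 ranked 13. The lowest of the 8 by FPKM, LHCB5, ranked 30, and its recovered length of 2600 bases was the longest. By reads it was not the lowest, with 31360 to 158442 over all libraries. LHCB6 had 20504 to 116497 reads and LOC_Os01g52240 had 14945 to 91581. The order from high to low was LOC_Os01g41710, LOC_Os09g17740, LHCB2, LHCB4, LHCB3, LOC_Os01g52240, LHCB6 and LHCB5. Neighbours overlapped between libraries for the first pair, for LHCB4 with LHCB3 and for LHCB6 with LHCB5, and were separate elsewhere.

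Together the 8 genes took 4.39%, 4.37% and 5.02% of all recovered reads in the untreated libraries. In WT_PEG the share was 2.56% and 2.8%, and the knockdown libraries had 1.96%, 1.83% and 1.94%. The 3 groups did not overlap in this share, whose means were 4.6% ± 0.369 (SD, n = 3), 2.68% ± 0.168 (SD, n = 2) and 1.91% ± 0.0678 (SD, n = 3). The minor antenna genes LHCB4 to LHCB6 went from 1.12% to 1.26% of reads without PEG to 0.439% and 0.479% in wild-type with PEG and 0.287% to 0.296% in the knockdown. The 3 LHCB1 copies went from 2.24% to 2.68% to 1.61% and 1.79%, and then to 1.19% to 1.3%. Every member was highest in replicate 3 among the untreated libraries, at 1.13 to 1.25 times the mean of replicates 1 and 2. Every member was also higher in WT_PEG replicate 2 than in replicate 1. For comparison, 48.9% of the tested genes were highest in that untreated library and 49.3% were higher in WT_PEG replicate 2.

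**Figure D1:**
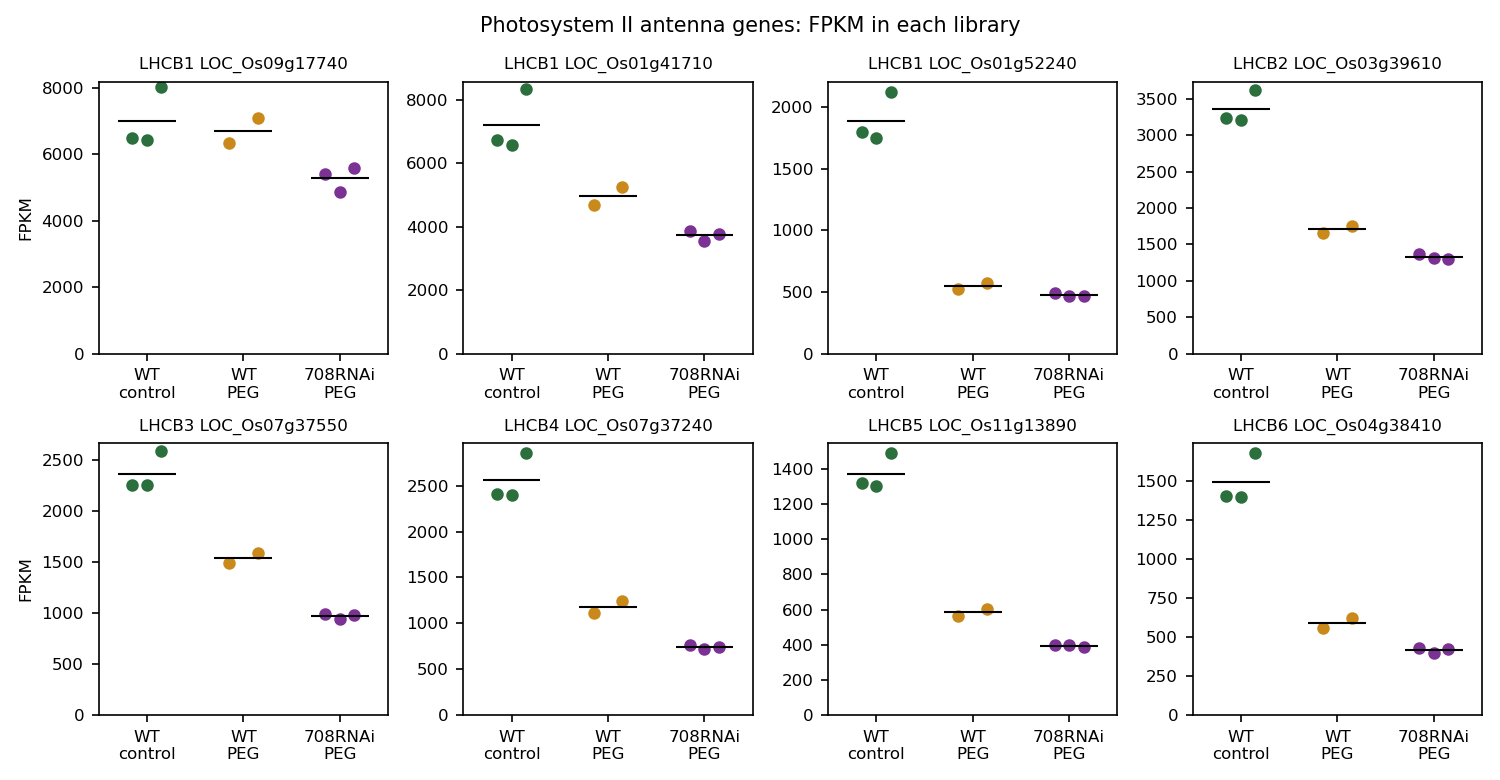
FPKM of each of the 8 LHCB genes (y axis, linear from 0) by group (x axis), with a point for each library and a line at the group mean. LOC_Os09g17740 overlaps between WT_control and WT_PEG, while the other 7 genes are lower in both WT_PEG libraries than in every WT_control library, and all 8 are lowest in 708RNAi_PEG.

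The first comparison asked how the antenna transcripts of wild-type seedlings differed after PEG. Of the 8 genes 7 were lower after PEG and 0 were higher (limma on log2(FPKM + 1), Benjamini-Hochberg adjusted p under 0.05). Among all genes tested 36.8% were called lower and 38.6% higher, 75.3% in either direction. The median log2 fold change of the 8 was -1.04, against 0.02 over all genes tested. In 7 of the 8 the treated and untreated libraries did not overlap, as for 40% of all genes tested in that direction and 42.4% in the other.

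The 3 LHCB1 copies gave the lowest and the highest fold change of the family. LOC_Os01g52240 had 1794, 1751 and 2123 FPKM in the untreated libraries and 527 and 570 FPKM after PEG. Mean FPKM was thus 3.45-fold lower, and the log2 fold change was -1.78 ± 0.09 (SE, n = 3 and 2, limma adjusted p = 1.3e-07). Its rank among all loci went from 18 to 94. LOC_Os01g41710 had 6744, 6591 and 8344 FPKM without PEG and 4678 and 5257 FPKM with it, and was 1.45-fold lower (log2 fold change -0.53 ± 0.13, limma adjusted p = 0.0047). That call did not hold with WT_PEG replicate 1 left out (limma adjusted p = 0.053) or without a filter on low values (limma adjusted p = 0.13). LOC_Os09g17740 had 6488, 6428 and 8023 FPKM without PEG and 6337 and 7073 FPKM with it. The groups overlapped, and the log2 fold change of -0.05 ± 0.14 did not pass (limma adjusted p = 0.74), although limma-voom on recovered reads called it lower at -0.2 (adjusted p = 0.028). Its sign also changed, to 0.02 to 0.05, with array weights, the replicate block, or without WT_control replicate 3 or WT_PEG replicate 1. In the authors' deposited table the log2 fold changes of LOC_Os01g52240, LOC_Os01g41710 and LOC_Os09g17740 were -1.78, -0.54 and -0.06.

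LHCB2 and LHCB3, the remaining trimer proteins, were both lower after PEG. LHCB2 had 3237, 3209 and 3626 FPKM without PEG and 1661 and 1760 FPKM with it, 1.96-fold lower (log2 fold change -0.97 ± 0.09, limma adjusted p = 6.4e-06). LHCB3 had 2255, 2261 and 2588 FPKM without PEG and 1493 and 1586 FPKM with it, 1.54-fold lower (log2 fold change -0.62 ± 0.09, limma adjusted p = 0.00015). In both genes every treated library lay below every untreated one.

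All 3 minor antenna genes were more than 2-fold lower in mean FPKM after PEG. LHCB4 had 2413, 2401 and 2859 FPKM without PEG and 1107 and 1244 FPKM with it, 2.18-fold lower (log2 fold change -1.12 ± 0.1, limma adjusted p = 5.2e-06). LHCB5 had 1323, 1302 and 1493 FPKM without PEG and 566 and 605 FPKM with it, 2.34-fold lower (log2 fold change -1.23 ± 0.08, limma adjusted p = 5.1e-07). LHCB6 had 1407, 1397 and 1680 FPKM without PEG and 559 and 624 FPKM with it, 2.53-fold lower (log2 fold change -1.33 ± 0.1, limma adjusted p = 1.3e-06). No untreated library of these 3 genes reached down to a treated one. Whether the fold changes differ between members was not tested.

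The make-up of the antenna transcripts differed between the groups. LOC_Os09g17740 made up 25.3% to 26.1% of the summed LHCB FPKM in untreated libraries, 37.4% and 37.8% in WT_PEG and 38.5% to 40.8% in 708RNAi_PEG. It took the first place in the order of levels in both PEG groups, above LOC_Os01g41710, which kept 26% to 28.3% of the sum in all 8 libraries. LOC_Os01g52240 went from 6.91% to 6.99% down to 3.05% and 3.11% in WT_PEG, and had 3.43% to 3.68% in 708RNAi_PEG. It came last in WT_PEG, where its values overlapped with those of LHCB5 and LHCB6. In 708RNAi_PEG it took place 6, separate from both. LHCB6 went from 5.47% to 5.51% to 3.3% and 3.33%. These shares are per kilobase of gene and were not tested.

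**Figure D2:**
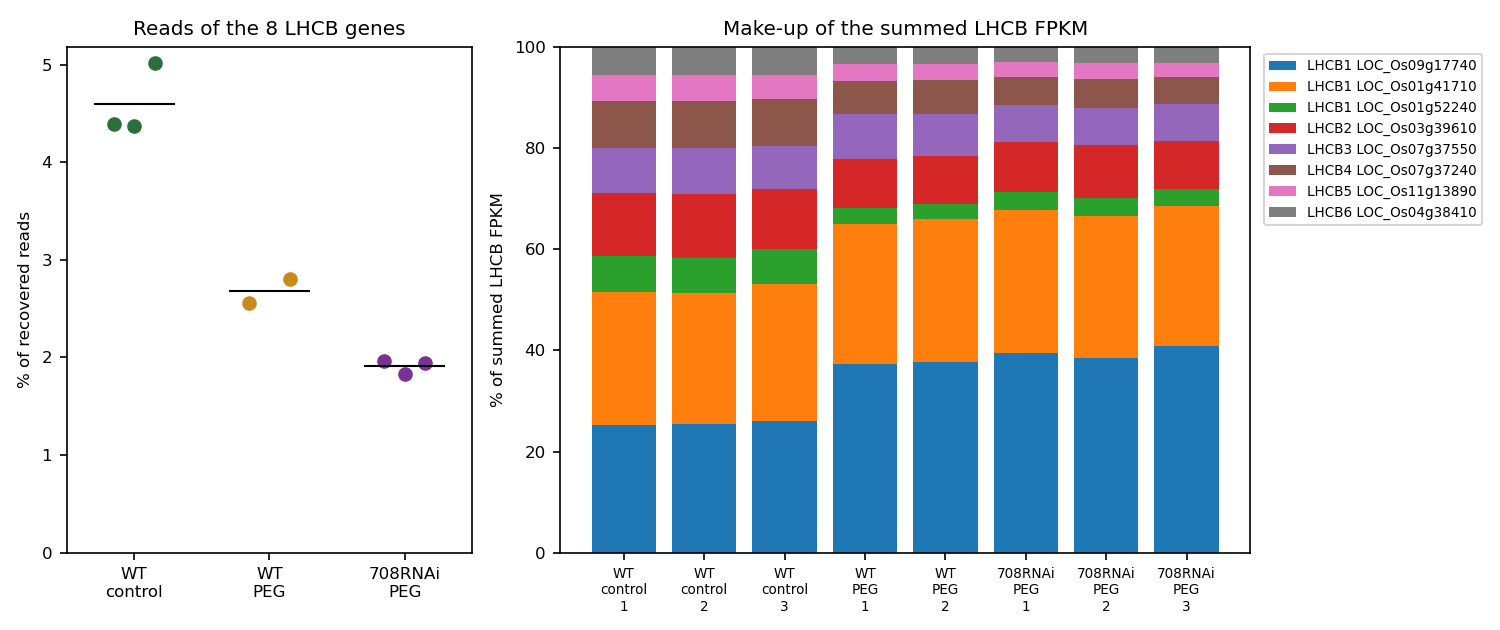
Left, reads of the 8 LHCB genes as % of all recovered reads, a point for each library and a line at the group mean. Right, % of the summed LHCB FPKM taken by each gene, a bar for each library; LOC_Os09g17740 rises from 25.3% to 26.1% in WT_control to 37.4% or more in the PEG libraries.

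The second comparison set the SDG708 knockdown against wild-type, both under PEG. Of the 8 genes 6 were lower in the knockdown and 0 were higher, where 16.4% of all genes tested were called lower and 21.3% higher, 37.6% in either direction (limma, Benjamini-Hochberg adjusted). The median log2 fold change of the 8 was -0.46, against 0.01 over all genes tested. In all 8 genes each knockdown library lay below both WT_PEG libraries, as in 28.9% of all genes tested, with 34.0% above. Leaving out 1 library at a time gave 4 to 8 genes lower, with 4 without WT_PEG replicate 2. WT_PEG enters both comparisons, so their fold changes are not independent and are only given side by side.

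LHCB3 had 992, 943 and 981 FPKM in the knockdown against 1493 and 1586 FPKM in wild-type under PEG. Its mean was 1.58-fold lower, and the log2 fold change was -0.66 ± 0.09 (SE from limma, adjusted p = 0.00042), beside -0.62 under PEG. Among the minor antenna genes, LHCB4 had 759, 724 and 742 FPKM against 1107 and 1244 FPKM, 1.59-fold lower (log2 fold change -0.66 ± 0.1, limma adjusted p = 0.00083). LHCB5 had 401, 397 and 385 FPKM against 566 and 605 FPKM, 1.48-fold lower (log2 fold change -0.57 ± 0.08, limma adjusted p = 0.00051). LHCB6 had 427, 397 and 426 FPKM against 559 and 624 FPKM, 1.42-fold lower (log2 fold change -0.5 ± 0.1, limma adjusted p = 0.0035). LHCB3, LHCB4, LHCB5 and LHCB6 were called lower in each of 19 alternative settings, and their knockdown libraries did not overlap with wild-type.

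The calls of the other 4 genes depended on the setting. LHCB2 had 1371, 1316 and 1305 FPKM against 1661 and 1760 FPKM, 1.29-fold lower (log2 fold change -0.36 ± 0.09, limma adjusted p = 0.011), a call that did not hold with WT_PEG replicate 2 left out (limma adjusted p = 0.098) and without a filter (limma adjusted p = 0.12). LOC_Os01g41710 had 3878, 3547 and 3786 FPKM against 4678 and 5257 FPKM, 1.33-fold lower (log2 fold change -0.41 ± 0.13, limma adjusted p = 0.037). This call did not hold when any knockdown replicate, either WT_PEG replicate or WT_control replicate 1 was left out (limma adjusted p = 0.055 to 0.23), and without a filter (limma adjusted p = 0.34). Quantile normalization set its log2 fold change to 0.0, since it ranked 4 by FPKM in both groups and this method equates values of equal rank.

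The 2 remaining LHCB1 copies did not pass. LOC_Os09g17740 had 5398, 4870 and 5569 FPKM in the knockdown against 6337 and 7073 FPKM (log2 fold change -0.35 ± 0.14, limma adjusted p = 0.077). It was called lower in 9 of 19 alternative settings, with the replicate block among them (limma adjusted p = 0.042) and limma adjusted p = 0.0076 without WT_control replicate 3. LOC_Os01g52240, the member with the steepest fall under PEG, had 490, 465 and 468 FPKM against 527 and 570 FPKM (log2 fold change -0.21 ± 0.09, limma adjusted p = 0.11), and was called lower in 6 of 19 settings, also without WT_control replicate 3 (limma adjusted p = 0.0095). The authors' deposited table gives LOC_Os09g17740 a p-value of 0.016 and LOC_Os01g52240 one of 0.076 for this comparison, without saying whether they are adjusted. In the knockdown under PEG the 8 genes stood at 0.251 (LOC_Os01g52240) to 0.756 (LOC_Os09g17740) of their levels in untreated wild-type, a pair of groups in which genotype and treatment both differ.

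**Figure D3:**
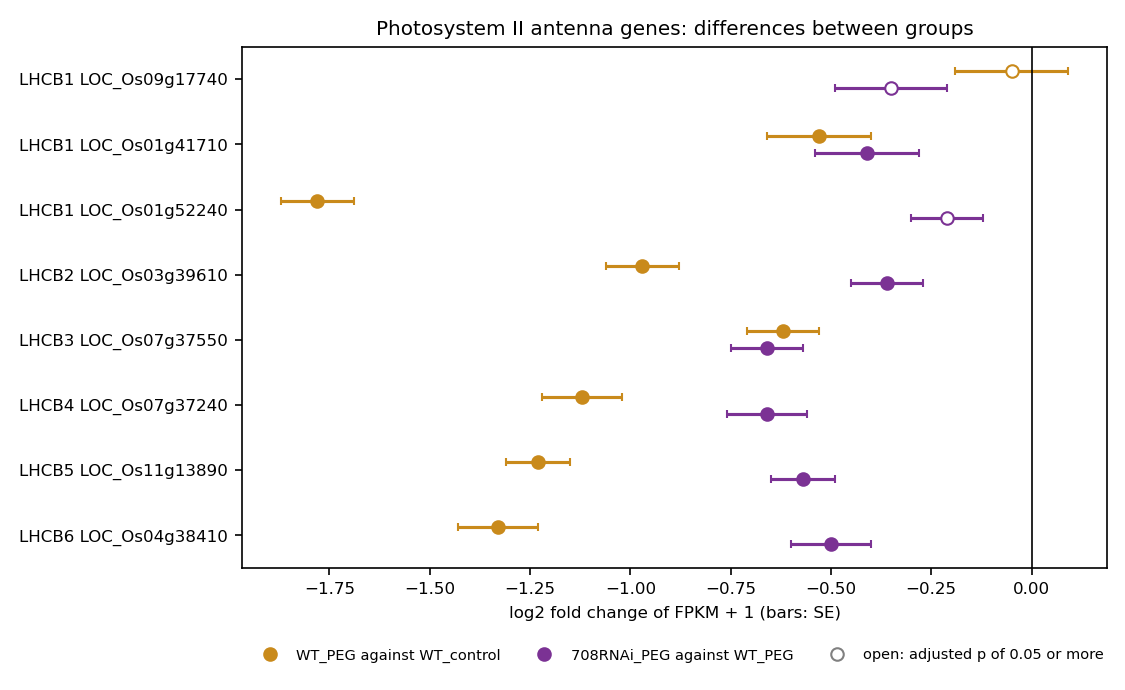
log2 fold change of FPKM + 1 (x axis) with its SE for each LHCB gene (y axis), for WT_PEG against WT_control and 708RNAi_PEG against WT_PEG; filled points passed an adjusted p of 0.05 (limma). The LHCB1 copies lie at -1.78, -0.53 and -0.05 under PEG, and in the knockdown comparison all 8 points lie between -0.66 and -0.21.

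Other genes of light harvesting were taken from lists written from knowledge of rice loci. Of the 62 loci listed beside the members, 26 had their name in the RefSeq table on the same chromosome. They stood in the same order along it wherever a chromosome held several names found. The other 36 are given by locus: their list names were not found there on that chromosome, and for 2 of them the table holds the name on another chromosome, against the list. Of the names found, PORA, CHLG, RCA and LHY (LOC_Os08g06110) were each alone on a chromosome, so their order could not be checked. Recovered length was 148% of the RefSeq span for NOL, 63.9% for RCA and 61.4% for LHY. Over all genes tested, 36.8% were called lower and 38.6% higher under PEG, and 16.4% and 21.3% in the knockdown. The list counts that follow stand beside these shares. Photosystem I has its own antenna, the LHCA proteins. Of 6 listed LHCA loci 3 were lower under PEG and 0 higher, with a median log2 fold change of -0.26. In the knockdown 5 of 6 were lower, with a median of -0.57, and LOC_Os08g33820 had 2111 ± 97.1 FPKM in wild-type (SD, n = 2) and 1233 ± 35.5 FPKM in the knockdown (SD, n = 3). LOC_Os02g10390 stood at 1277 ± 89 FPKM without PEG, 1395 ± 71.1 FPKM with PEG and 935 ± 21.1 FPKM in the knockdown. With total recovered reads or limma-voom 5 LHCA loci were lower under PEG, and with array weights or without WT_control replicate 3 there was 1 higher.

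The extrinsic proteins of photosystem II shield its water-splitting cluster. All 3 listed loci were lower under PEG (median log2 fold change -0.54) and all 3 were lower again in the knockdown (median -0.34), of which 1 was still called without WT_PEG replicate 2 or without a filter. Of 7 listed loci related to the LHC family, such as those for the photoprotective PsbS and early light-induced proteins, 3 fell and 3 rose under PEG and 2 were lower in the knockdown. That last count was between 1 and 4 in the alternatives. LOC_Os09g12540, entered for LHCB7 and not among the 8 members, was called higher under PEG (log2 fold change 0.33, limma adjusted p = 0.0039). In the knockdown it was called lower (log2 fold change -0.62, limma adjusted p = 0.00033). With quantile normalization 2 loci of this list rose under PEG, and 4 did with array weights, with the replicate block or without WT_control replicate 3. The 2 loci whose names lie on another chromosome in the RefSeq table, LOC_Os05g22730 and LOC_Os01g40710, are both on this list, so their place in it is in doubt. LOC_Os05g22730 is counted as lower in both comparisons, with 58.6 ± 6.92, 31.9 ± 1.89 and 25.3 ± 1.67 FPKM in the 3 groups, and LOC_Os01g40710 was called in neither. The lists also held 3 loci for the chloroplast signal recognition particle pathway, which delivers antenna proteins to the membrane. All 3 fell under PEG, by up to a log2 fold change of -1.08 (LOC_Os03g03990), and 0 were called in the knockdown comparison, in which the log2 fold changes were -0.09 to 0.14 and 1 was called higher or lower in some alternatives.

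Chlorophyll synthesis, which supplies the pigments the antenna proteins bind, had 12 of 13 listed loci tested, and 11 of them fell under PEG while 0 rose (median log2 fold change -0.99). PORA (LOC_Os04g58200), a light-dependent protochlorophyllide reductase, had 253 ± 20.3 FPKM without PEG (SD, n = 3) and 81.6 ± 5.81 FPKM with it (SD, n = 2). CHLI (LOC_Os03g36540), a subunit of magnesium chelatase, went from 61.2 ± 1.24 to 19.8 ± 1.31 FPKM, and CHLH (LOC_Os03g20700), the large subunit, from 97.8 ± 10.9 to 47.7 ± 2.24 FPKM. In the knockdown 6 loci were lower and 1 higher (median -0.26). PORB (LOC_Os10g35370), another such reductase, was at 27.2 ± 1.09 against 44.5 ± 0.456 FPKM, CHLH at 34.2 ± 2.66 against 47.7 ± 2.24 FPKM and PORA at 61 ± 3.26 against 81.6 ± 5.81 FPKM. CHLI had 18.4 ± 0.704 FPKM in the knockdown and 19.8 ± 1.31 FPKM in wild-type, with overlapping libraries, and did not pass (limma adjusted p = 0.2). The locus called higher was CHLG (LOC_Os05g28200), chlorophyll synthase, at 5.41 ± 0.107 against 4.83 ± 0.00752 FPKM. Its limma adjusted p of 0.033 was lost in 13 of 19 alternatives, among them the removal of any library other than WT_control replicate 3, and with the replicate block (limma adjusted p = 0.058).

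Chlorophyll breakdown moved the other way under PEG, with 6 of 6 listed loci higher and a median log2 fold change of 2.25. RCCR1 (LOC_Os10g25030), red chlorophyll catabolite reductase, rose 6.8-fold, from 8.15 ± 0.576 in untreated seedlings (SD, n = 3) to 55.4 ± 2.1 FPKM after PEG (SD, n = 2). NYC1 (LOC_Os01g12710), a chlorophyll b reductase whose rice mutants retain LHCII during senescence, went from 13 ± 0.475 to 57.5 ± 2.69 FPKM. In the knockdown 2 loci were higher and 1 lower. NYC1 was at 83.7 ± 1.5 FPKM (SD, n = 3), 1.46-fold above wild-type under PEG (log2 fold change 0.53 ± 0.05, limma adjusted p = 5.1e-05). SGR (LOC_Os09g36200), the Stay-Green magnesium dechelatase, was at 80.9 ± 2.82 against 58.5 ± 2.29 FPKM, and is named after its values were seen. NOL (LOC_Os03g45194), a partner of NYC1, was the lower one, at 6.9 ± 0.0294 against 7.79 ± 0.0885 FPKM (limma adjusted p = 0.03). It no longer passed when either WT_PEG replicate or any knockdown replicate was left out (highest limma adjusted p = 0.14). The count of lower loci was 0 to 3 in the alternatives.

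GLK1 and GLK2 are transcription factors that activate LHCB and chlorophyll synthesis genes. GLK1 (LOC_Os06g24070) had 59.5, 60.3 and 59.2 FPKM in untreated seedlings, 52.4 and 55.1 FPKM in wild-type under PEG, and 39.5, 39.5 and 39.2 FPKM in the knockdown. Its groups did not overlap. The log2 fold change was -0.44 ± 0.04 in the knockdown (SE, limma adjusted p = 6.4e-05) and -0.15 ± 0.04 under PEG (limma adjusted p = 0.011), where it no longer passed once WT_PEG replicate 1 was left out (limma adjusted p = 0.1). GLK2 (LOC_Os01g13740) had 16.4 ± 0.732 FPKM (SD, n = 3) without PEG, 19.7 ± 0.652 FPKM (SD, n = 2) with PEG and 16.8 ± 0.808 FPKM (SD, n = 3) in the knockdown. It was called higher under PEG (limma adjusted p = 0.0027), which was lost with quantile normalization (limma adjusted p = 0.89) or total recovered reads (limma adjusted p = 0.058), and lower in the knockdown (limma adjusted p = 0.013), which did not hold with WT_PEG replicate 2 left out (limma adjusted p = 0.1). The third locus of this list, LOC_Os05g47560, was entered for the STN7 kinase of LHCII and had 48.1 ± 1.02, 65.8 ± 0.919 and 50.9 ± 1.43 FPKM in the 3 groups.

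Seedlings mix leaf and root, and fewer green cells and less RNA per cell cannot be told apart in them. Loci of carbon fixation in the stroma fell under PEG in 9 of 9 cases, and in the knockdown 6 of 9 were lower. Rubisco activase (RCA, LOC_Os11g47970) had 3147 ± 26.9 FPKM (SD, n = 3), 1697 ± 27.5 FPKM (SD, n = 2) and 1029 ± 5.41 FPKM (SD, n = 3) in the 3 groups. The 3 loci listed as Rubisco small subunit genes did not pass in the knockdown comparison, and LOC_Os12g17600 was at 2357 ± 109 against 2282 ± 83.8 FPKM. Their copies are similar, and the division of reads among them is uncertain. Summed over these 3 loci and RCA, the leaf markers had 10506 to 11623 FPKM without PEG, 4465 to 4556 with PEG and 3781 to 4005 in the knockdown. The lower sum in the knockdown came from RCA. The 3 small subunit loci had log2 fold changes of 0.05, -0.05 and 0.0 there. All 4 root markers, LSI1, LSI2, NRAMP5 and LOC_Os02g44310, fell under PEG as well, and none was at 0. NRAMP5, at 4.11 ± 0.0963 FPKM in WT_control, lay below FPKM 1 in every PEG library. It passed the filter through WT_control alone, which favours a fall, so its call adds no support. The sum of the 4 went from 426 to 459 FPKM down to 63.9 to 64.6 FPKM, with 50.6 to 54.3 FPKM in the knockdown, and LSI2 (LOC_Os03g01700) from 47.6 ± 4.01 to 4.56 ± 0.286 FPKM. Most of that sum was LOC_Os02g44310, with means of 334, 53.6 and 42 FPKM in the 3 groups. In the knockdown comparison 1 of the 4 was called lower, LOC_Os02g44310, at 42 ± 1.8 against 53.6 ± 0.948 FPKM (log2 fold change -0.35). LSI1 and LSI2 did not pass (log2 fold changes -0.12 and -0.07), nor did NRAMP5, which had 0.499 ± 0.0132 FPKM in the knockdown and 0.356 ± 0.0323 FPKM in wild-type. The part of leaf and root amounts in the LHCB results was not tested.

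LHCB transcripts follow the time of day, and the sample details used here give no harvest hour. Of 8 clock loci 4 were higher and 2 lower under PEG, a share near that of all genes tested, of which 75.3% were called. GI (LOC_Os01g08700) was at 57 ± 2.12 and 105 ± 1.63 FPKM and PRR1 (LOC_Os02g40510) at 6.33 ± 0.144 and 3.72 ± 0.0175 FPKM. With quantile normalization, total recovered reads or limma-voom 2 were higher. The lower loci were 3 with total recovered reads or limma-voom and 1 without WT_PEG replicate 2. In the knockdown 3 were lower and 1 higher, where 37.6% of all genes tested were called in either direction. GI, at 93.6 ± 3.61 against 105 ± 1.63 FPKM (limma adjusted p = 0.036), was among the lower ones, and did not pass in 6 of 19 alternatives, namely the replicate block (limma adjusted p = 0.054) and the removal of WT_control replicate 1, either WT_PEG replicate, or knockdown replicate 1 or 3 (highest limma adjusted p = 0.17). PRR37 (LOC_Os07g49460) had 5.5 ± 0.332 FPKM (SD) there and 7.52 ± 0.0812 FPKM in wild-type. PRR1 was the higher one (limma adjusted p = 0.028), which did not hold without knockdown replicate 2, without either WT_PEG replicate, or with total recovered reads or limma-voom (highest limma adjusted p = 0.18). The part of clock phase in the LHCB results was not tested.

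**Figure D4:**
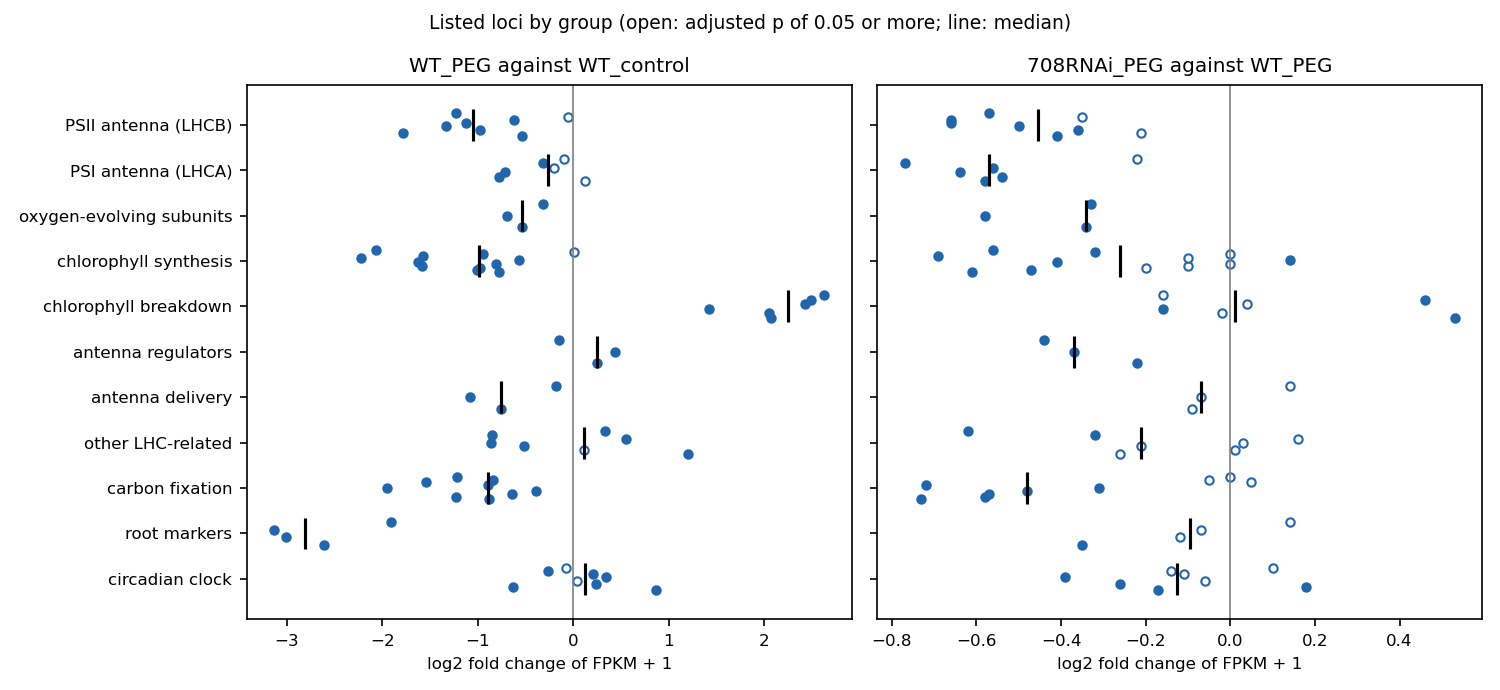
log2 fold change of FPKM + 1 (x axes, which differ in range) of each tested locus in the lists (y axis), for PEG in wild-type (left) and the knockdown under PEG (right); filled points passed an adjusted p of 0.05 and lines mark medians. Under PEG the chlorophyll breakdown loci lie to the right, with a median of 2.25, and the LHCB and chlorophyll synthesis loci to the left, with medians of -1.04 and -0.99.

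Over the 8 libraries, 6233 other tested loci with a mean of at least 10 FPKM were ranked by Pearson r between their log2(FPKM + 1) and the mean of the 8 LHCB genes. The 5 highest were LOC_Os08g01140 (r = 0.999), LOC_Os11g02400, LOC_Os09g23550, LOC_Os01g31690 and LOC_Os12g26880 (each r = 0.998). LOC_Os01g31690 is one of the loci listed for the extrinsic photosystem II proteins, with 2421, 1667 and 1317 FPKM in the 3 groups, while the others carry no name in the tables used. LOC_Os08g01140 had 33.3 ± 3.16, 13.1 ± 1.13 and 8.02 ± 0.528 FPKM. The 8 libraries fall into 3 groups, so these values describe likeness over 3 levels. Set against the mean of the other 7 members in the same way, LOC_Os09g17740 had the lowest r of the 8 members at 0.782. The other members had 0.967 (LOC_Os01g52240) to 0.998.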

How the data were processed

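Per the labels' protocols, a stranded kit was used on polyA RNA. The deposited table holds FPKM per locus and library and the authors' group means as FPKM, and for each of 2 comparisons a p-value and a log2 fold change that the authors computed. The submitters' processing notes list HISAT2, featureCounts and DESeq2, besides cutadapt, SAMtools, FastQC and deepTools, with no role or version. Genome build, annotation and strand setting of counting: not given in the sources used here.

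Whole reads were recovered from FPKM steps (tolerance of at most 0.03 reads). They came to 86.97% to 103.32% of the FPKM denominators and were lowest in WT_control, so scaling to total reads lowers treated libraries relative to WT_control. Loci reaching FPKM 1 in 2 or more libraries (20943) were tested as log2(FPKM + 1), which understates changes of low genes, with limma 3.58.1 in R 4.3.3 (variance trend, 3 groups in 1 model, 5 residual degrees of freedom, two-sided, Benjamini-Hochberg over all tested loci). The fit was tested on simulated data with independent noise of equal size for every gene. The planted changes were larger than those of the LHCB genes in the knockdown, so that test cannot show how reliable those calls are. Folds in words are ratios of mean FPKM. Groups came from sample titles. Members and lists were chosen with earlier results of these data known. By rule, the text names all members and, per other list, the called locus with a RefSeq name that fell or rose most (up to 2 for chlorophyll synthesis); no LHCA locus has a RefSeq name, so the rule named none, and the LHCA loci printed, like other loci named beyond the rule, were chosen after their values were seen. Alternatives were other pseudocounts, filters, scalings, weights, limma-voom, a replicate block and each library left out.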

Additional observations from a re-analysis of the deposited data

How the results depend on the processing

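Under 19 alternatives, 6 to 8 LHCB genes were lower under PEG and 4 to 8 in the knockdown, and 0 were higher in either. The 6 genes other than LOC_Os09g17740 and LOC_Os01g41710 were called lower under PEG in 19 of 19, and LHCB3, LHCB4, LHCB5 and LHCB6 in the knockdown in 19 of 19. The log2 fold change of LOC_Os01g41710 in the knockdown was 0.0 with quantile normalization. The LHCB share in WT_control was 4.08% ± 0.44 (SD, n = 3) of the FPKM denominator in place of 4.6% of reads. In WT_PEG it was 2.62% ± 0.183 (SD, n = 2) in place of 2.68%. In 708RNAi_PEG it was 1.96% ± 0.0842 (SD, n = 3) in place of 1.91%. The fall under PEG was thus smaller on the scale of the FPKM values. Replicate numbers pair only 2 libraries per comparison. Deviations of same-numbered libraries correlated at 0.25 and -0.23 for PEG and -0.09 and -0.21 for the knockdown. The deviations of the 2 WT_PEG libraries mirror each other and enter all these values, which therefore cannot decide whether libraries were paired. With the replicate block 7 LHCB genes were lower in each comparison. It called 8169 genes higher and 7680 lower under PEG, and 4265 and 3449 in the knockdown, against 8076, 7702, 4451 and 3428 without it. With FPKM of at least 5 in 2 libraries, by construction with 11982 genes tested, 4138 genes were lower under PEG and 2162 in the knockdown. Leaving out 1 library gave 2155 to 4051 genes lower in the knockdown, with 2155 without WT_PEG replicate 2 and 2229 without replicate 1. Scaling to total recovered reads moved the median over all genes, as log2 fold change, from 0.02 to -0.09 under PEG and from 0.01 to -0.04 in the knockdown, with 6520 higher and 9205 lower under PEG and 3439 and 4402 in the knockdown. The causes of these moves beyond the number of genes tested were not tested.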
